A study of Mus musculus with 6 samples.

Results

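The proximal miRNAs of the imprinted Dlk1-Dio3 domain on mouse chromosome 12 were examined in a small RNA library of liver. The members are the mouse mature sequences numbered miR-770, miR-673, miR-493, miR-337, miR-3544, miR-540, miR-665, miR-3070, miR-431, miR-433, miR-127, miR-434, miR-432, miR-3071, miR-136, miR-341, miR-1188 and miR-370, with either arm. The 18 numbers gave 36 distinct sequences from 19 hairpins, out of 1963 distinct mouse sequences in the table. The rule uses their names and positions. The study compared livers of mice injected with adeno-associated virus of serotype 9 (AAV9) carrying AAV9-Tnnt2-Cre-miR122 or AAV9-Tnnt2-Cre. Both vectors carry Cre recombinase, and both are named after Tnnt2, the gene of cardiac troponin T, whose promoter is used for expression in heart muscle. The labels name 3 livers of each group, replicates 1, 2 and 4 of Cre-miR122 and 10, 11 and 12 of Cre, and give no strain, age, sex, dose or time. All values come from Cre-miR122 replicate 2, since the remaining 5 libraries were not used here. They have neither a replicate nor a control, and the effect of the vector could not be tested.

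In this domain, noncoding RNAs and miRNAs are expressed from the maternal chromosome, while the protein-coding genes Dlk1, Rtl1 and Dio3 are expressed from the paternal one. A group of the miRNAs is processed from a transcript antisense to Rtl1, a retrotransposon-derived gene needed in the placenta. Because they lie opposite its coding sequence, they pair perfectly with Rtl1 mRNA and can direct its cleavage. The miRNAs of the domain are known for high levels in the embryo, the placenta and the brain.

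The sequences with the most reads are shown first, because the results turn on their arms and on where each begins. They are mature mouse sequences from RefSeq (GRCm38.p6), 5′ to 3′, all on the plus strand of chromosome 12, with the seed (bases 2 to 8) in capitals.
miR-127-3p, chr12:109592888-109592909: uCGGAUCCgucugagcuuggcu
miR-434-5p, chr12:109594528-109594549: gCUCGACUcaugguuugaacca
miR-434-3p, chr12:109594565-109594586: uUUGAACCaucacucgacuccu
miR-337-5p, chr12:109585818-109585839: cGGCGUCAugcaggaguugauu
miR-341-3p, chr12:109611556-109611576: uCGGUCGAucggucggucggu
miR-136-5p, chr12:109595331-109595352: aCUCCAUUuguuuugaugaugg
miR-673-3p, chr12:109572044-109572066: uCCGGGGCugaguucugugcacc
miR-370-3p, chr12:109618305-109618326: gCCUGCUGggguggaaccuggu
miR-433-3p, chr12:109591781-109591802: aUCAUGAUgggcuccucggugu
No seed among these 9 sequences is shared with another member. All 36 members matched a RefSeq entry by name and sequence.

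The library held 6661069 reads of mouse sequences. Entries of other species with the same miRNA number often record the same mouse hairpin with another first or last base. Such end forms were added in a second value, called "with end forms", over 8032202 reads in all. Intervals in parentheses are exact 95% intervals (Clopper-Pearson for shares). They and the floor below cover counting error only, since PCR copies were counted as reads. A count of 0 was taken to allow up to 3 reads, a share of 4.5e-05% of mouse reads. This set floor lies below the upper end of the exact 95% interval of a count of 0, which is 5.538e-05%. Adapter ligation favours some small RNAs, so reads of different miRNAs are not numbers of molecules.

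The label of the tissue was checked with marker miRNAs. The 4 hepatocyte markers held 62.6% of mouse reads, and 4 of 4 had reads. Of their 4168404 reads, miR-148a-3p, which other tissues also express, gave 3856275. miR-122-5p, the defining miRNA of hepatocytes, had 236027 reads, or 685102 with end forms. The vector's name includes miR122, and the labels do not say what that element is. The 6 striated muscle markers held 15.8%, with reads for 5 of 6 and miR-208a-3p, a heart miRNA, at 0. Most of their 1050297 reads came from miR-1a-3p, with miR-206-3p at 68854, miR-133a-3p at 915 (11609 with end forms), miR-499-5p at 251 and miR-208b-3p at 6. miR-1a-3p, a muscle miRNA, had 980271 reads, or 1065891 with end forms, above miR-122-5p in both counts. Most reads of the hepatocyte list came from miR-148a-3p, which does not by itself identify liver. The remaining hepatocyte markers, miR-192-5p and miR-194-5p, had 72085 and 4017 reads. The 5 stellate cell and fibroblast markers held 2.15%, or 2.23% with end forms, and the 2 endothelial markers 0.908%, or 1.7%. The 5 blood markers held 0.0439%, the 5 neuronal markers 0.019% and the 2 islet and pituitary markers 0.0106%, with reads for every marker of these 3 lists. With end forms these shares were 0.0737%, 0.0498% and 0.0572%, so the order of the last pair of lists turned around. Most reads of the neuronal list came from miR-128-3p with 1008, or 3610 with end forms. miR-129-5p had 202 reads, miR-9-5p 55 and miR-138-5p 2. miR-124-3p, the defining miRNA of neurons, had 1 read, or 2 with end forms. The part of these cells in the reads of the proximal miRNAs was not tested. In a bulk sample, fewer cells of a type and less RNA per cell cannot be told apart.

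The proximal miRNAs were clearly present, and 1 of them held most of the reads. Together they had 58392 reads, 0.877% of mouse reads (0.8696 to 0.8837), and 114693 reads or 1.43% with end forms (1.42 to 1.436). Reads were found for 22 of 36 members by the mouse entry, against 27.8% of all mouse sequences. With at least 10 reads there were 17 of 36, which is 47.2%, against 15.4% of all mouse sequences. With end forms, 23 of 36 had a read, against 30.3% of all mouse sequences. The median was 6.5 reads over the 36 members and 0 over all mouse sequences. With 1 library these shares are a description.

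miR-127-3p, which has been reported to repress Bcl6 in human cell lines, was the most abundant member. It had 46251 reads by its mouse entry, 79.2% of the reads of the 36 members (78.9 to 79.5), and ranked 15 among all mouse sequences. With end forms it had 96047 reads, 83.7% of the set (83.5 to 84.0), and ranked 12. miR-434-5p came next with 6167 reads, or 6624 with end forms. miR-127-3p had 7.5 reads per read of miR-434-5p (7.3 to 7.7), and 14.5 with end forms (14.1 to 14.9). The gap between the highest and the next member was thus far beyond counting error in both counts. It was wider with end forms, of which 4 are listed for miR-127-3p and 1 for miR-434-5p. The part of this listing in the wider gap was not tested.

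By the mouse entry, 4 members reached 1000 reads: miR-127-3p, miR-434-5p, miR-434-3p with 1582 and miR-337-5p with 1212. The lowest of these, miR-337-5p, ranked 67 among all 1963 mouse sequences. With end forms 7 members reached 1000 reads, beside 95 arms of that size among all 1963 mouse sequences. miR-136-3p with 2552 reads, miR-127-5p with 1883 and miR-493-5p with 1278 had joined the first 4. Of miR-434-3p and miR-337-5p, counting end forms could raise only the latter, since no other form of the former is listed. The direction of the change in their ratio was thus fixed, and nothing is read from it. Their ratio was 1.31 (1.21 to 1.41) by mouse entries and 1.04 (0.965 to 1.11) with end forms, so their order is not resolved in the second count.

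By mouse entries, 13 members had at least 10 but under 1000 reads. The highest were miR-341-3p, a miRNA annotated in rodents, with 895 reads, miR-136-5p with 562, miR-673-3p with 470 and miR-370-3p with 385. miR-370-3p has been reported to repress Cpt1a, the enzyme that controls fatty acid entry into mitochondria, in liver cells. miR-433-3p had 331 reads, miR-431-5p 203, miR-540-3p 132 and miR-127-5p 100. miR-370-3p and miR-433-3p were close to each other, at a ratio of 1.16 (1.01 to 1.34) with end forms. The low end of this range held miR-136-3p with 27, miR-493-3p with 16, miR-770-3p with 15, and miR-337-3p and miR-433-5p with 13 each.

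The 5 members with 1 to 9 reads were miR-370-5p, miR-493-5p, miR-540-5p, miR-665-3p and miR-341-5p. A mouse-entry count of 0 was found for 14 members, among them both arms of miR-1188, miR-3071 and miR-3544 and the 3 sequences of miR-3070. The other members at 0 were miR-432, miR-770-5p, miR-673-5p, miR-665-5p and miR-431-3p. Of these 14, miR-431-3p alone had an end form with reads, 6 in all. The remaining 13 were not detected at this depth.

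**Figure D1:**
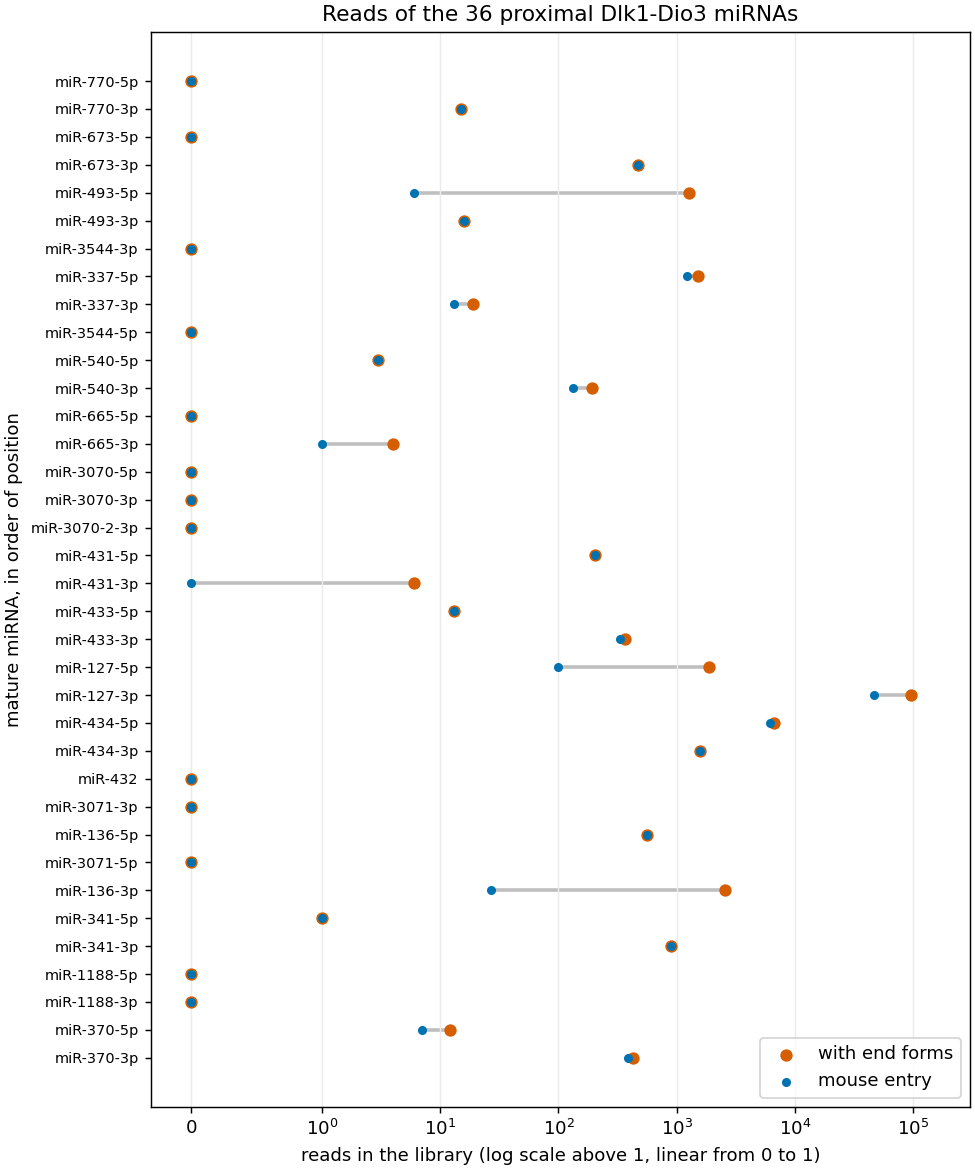
Reads of each of the 36 mature miRNAs in the library (x axis, log scale above 1 read), in order of position along chromosome 12 (y axis). Blue points are reads of the mouse entry and orange points add end forms; miR-127-3p lies farthest right at 46251 and 96047 reads, and miR-493-5p, miR-136-3p and miR-127-5p lie over 10-fold higher with end forms, and miR-431-3p goes from 0 to 6 reads.

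The reads were concentrated in the hairpins opposite Rtl1. Rtl1 (ENSMUSG00000085925.3) lies on the minus strand at chr12:109589193-109600330 on GRCm38, the assembly of mm10, with its coding sequence from 109590172 to 109595403. The hairpins Mir431, Mir433, Mir127, Mir434, Mir432 and Mir136 lie on the plus strand within that coding sequence. All 11 of their mature sequences were found as exact complements in the Rtl1 transcript, as follows from their position, and 0 of the other 25 members were. These 11 sequences held 55236 reads, 94.6% of the set (94.4 to 94.8), and 109837 or 95.8% with end forms. Mir127 made up most of them with 46351 reads, and the other 5 hairpins held 8885, or 11907 with end forms. Mir434 had 7749 reads, Mir136 589, Mir433 344, Mir431 203 and Mir432 0. Neighbouring hairpins opposite the same gene thus ranged from 0 to 46351 reads.

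The 8 plus-strand hairpins before Rtl1 held 1868 reads, 3.2% of the set (3.06 to 3.35), or 3525 with end forms. Mir770 at chr12:109563692-109563785 lies within Meg3, the maternally expressed noncoding RNA, in an exon of 1 annotated transcript. It had 15 reads, all on its 3p arm. Mir673, Mir493, Mir337, Mir540, Mir665 and both copies of Mir3070 lie between Meg3 and Rtl1 in no other annotated gene of their strand. Mir337 had 1225 of these reads and Mir673 470. Mir493 had 22 reads by mouse entries and 1294 with end forms.

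The 3 hairpins beyond Rtl1 held 1288 reads, 2.21% of the set (2.09 to 2.33), or 1331 with end forms. Mir341, Mir1188 and Mir370 lie in introns of Rian, a maternally expressed host of small nucleolar RNAs. Mir341 had 896 reads and Mir370 392, while Mir1188, which starts within 1 kb of Mir341, had 0. No member of this group reached 1000 reads.

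The 4 members on the minus strand, from 2 hairpins, had no reads. Of all mouse sequences, 30.3% had a read with end forms, so most had none either. Members on the plus strand were also among those at 0, and nothing is read from the strand. Mir3544 overlaps Mir337, and Mir3071 overlaps Mir136. The overlap can be seen in miR-136-5p, printed above, and miR-3071-3p at chr12:109595329-109595350 on the minus strand, which share 20 genomic positions.
miR-3071-3p: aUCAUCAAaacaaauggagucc
With end forms, Mir136 had 3115 reads and Mir3071 had 0, so Mir136 was at least 1038-fold higher, taking 3 reads as the floor. Mir337 had 1546 reads and Mir3544 0, at least 515.3-fold.

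**Figure D2:**
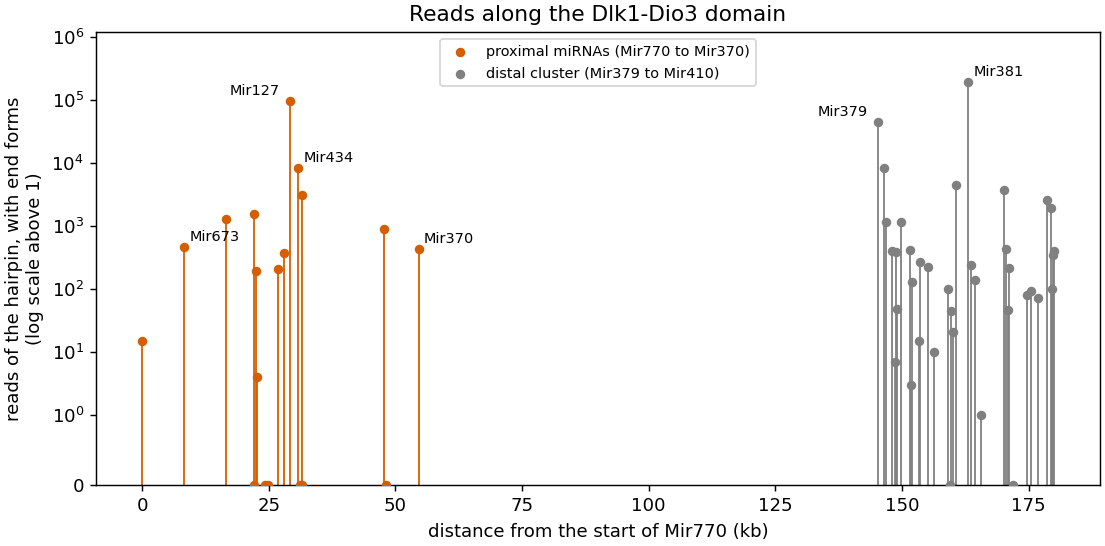
Reads of each hairpin with end forms (y axis, log scale above 1 read) against the distance of its start from that of Mir770 in kb (x axis). Orange marks are the 19 proximal hairpins, of which Mir127 is highest at 97930 reads, and grey marks are hairpins of the distal cluster, where Mir381 is highest; marks at 0 had no read.

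The distal cluster of the same domain, from Mir379 to Mir410 on the same strand, was the nearest comparison. Its 75 distinct mouse sequences had 245851 reads, 4.21 per read of the proximal members (4.17 to 4.25), and 266892 or 2.33 per read with end forms (2.31 to 2.34). The excess thus narrowed when end forms were counted. Of the 56301 proximal reads that end forms added, 49796 were of miR-127-3p. Such added reads depend on which forms are listed, 4 of them for miR-127-3p. The part of this listing in the narrower excess was not tested. Both sets were led by a single miRNA: miR-381-3p held 78.3% of the distal reads, where miR-127-3p held 79.2% of the proximal ones. Without these leaders the distal set had 4.4 reads per proximal read by mouse entries (4.31 to 4.49). With end forms this was 3.87 (3.81 to 3.94), a setting chosen after seeing the data. At least 10 reads were found for 37 of 75 distal sequences, 49.3%, beside 47.2% of the proximal ones. These are values of 1 library, and no difference between the sets was tested.

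In base composition the members were richer in G and C than the distal set. Their median GC content was 56.8%, against 45.5% over the 75 distal and 52.2% over all mouse sequences. The 23 members with a read of any form had a median of 56.5%, and the 13 with none had 59.1%. A first base of U, which Argonaute proteins favour, was found in 14 of 36 members, 38.9%, against 41.2% of all mouse sequences. The hairpin of miR-434 is built of repeats. The letters GGUUUGAACCA, chosen from this hairpin, occur 3 times in its sense strand. On either strand they were found in 1 of 2202 mouse hairpins, 0.0454%. That hairpin is Mir434 itself, as the choice of letters ensured, and nothing is read from this share. They stand in capitals below, in Mir434 at chr12:109594506-109594599, and 1 copy ends miR-434-5p while another runs into miR-434-3p.
Mir434: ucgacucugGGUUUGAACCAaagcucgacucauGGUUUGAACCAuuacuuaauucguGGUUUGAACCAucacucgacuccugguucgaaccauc

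In several abundant members, many reads were counted for forms whose ends differ from the mouse entry. Of the 23 members with reads, 16 had at least 1 other end form listed in the table, and the other 7, such as miR-434-3p, could show none. End forms added 56301 reads to 14 members. Of these, 51981 reads kept the first base of the mouse entry and 4320 began at another base, 3.77% of the reads of the set with end forms. Longer forms exceeded shorter ones with the same first base in 13 of 25 such pairs with reads. That cannot happen if a read is counted for every entry it contains. The rule by which reads were counted is not stated, and other rules were not tested. The values below are thus counts of entries, and whether each read ended exactly where its entry does is not known.

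miR-127-3p varied at its 3′ end. The mouse entry of 22 nt had 46251 reads, 48.2% of the arm (47.8 to 48.5). The form 1 nt shorter had 27132 reads and the form 2 nt shorter 22661. Of the listed forms that begin 1 nt earlier, the form of 23 nt had 3 reads and the form of 24 nt had 0. The others of the 96047 reads share the seed CGGAUCC. No form with a later start is listed. The 3 main forms are shown with their seed in capitals.
miR-127-3p, mouse entry: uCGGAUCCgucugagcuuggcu
miR-127-3p, 1 nt shorter: uCGGAUCCgucugagcuuggc
miR-127-3p, 2 nt shorter: uCGGAUCCgucugagcuugg

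miR-127-5p varied at its 5′ end, which moves the seed. Its mouse entry had 100 reads, 5.31% of the arm (4.34 to 6.42). A form that begins 2 nt later had 1034 reads, 54.9% (52.6 to 57.2), and 1 that begins 1 nt later had 432, 22.9% (21.1 to 24.9). Forms with a shifted start thus made up 77.9% of the 1883 reads (75.9 to 79.7). The seed changes from UGAAGCU to AAGCUCA between the mouse entry and the most abundant form. The hairpin is printed with the mouse arms in capitals, followed by these forms with the seed in capitals.
Mir127, chr12:109592846-109592915: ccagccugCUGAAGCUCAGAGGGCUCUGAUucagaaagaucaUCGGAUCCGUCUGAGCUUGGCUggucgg
miR-127-5p, mouse entry: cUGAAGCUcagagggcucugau
miR-127-5p, 1 nt later: uGAAGCUCagagggcucugauu
miR-127-5p, 2 nt later: gAAGCUCAgagggcucugauuc

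miR-136-3p lay almost wholly outside its mouse entry. That entry had 27 reads, 1.06% of the arm (0.698 to 1.54). The form that begins and ends 1 nt earlier, listed for human and other species, had 2344 reads, 91.8% (90.7 to 92.9). Another 181 reads kept the mouse start and ended 1 nt earlier. The seed of the main form is AUCAUCG in place of UCAUCGU. Counting all forms raised the arm 94.5-fold.
Mir136, chr12:109595327-109595388: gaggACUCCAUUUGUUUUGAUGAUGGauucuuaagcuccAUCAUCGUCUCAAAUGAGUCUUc
miR-136-3p, mouse entry: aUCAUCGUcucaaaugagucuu
miR-136-3p, 1 nt earlier: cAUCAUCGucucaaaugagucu

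miR-493-5p differed at its 3′ end, and the table lists no form of it with another start. Its mouse entry, 19 nt long, had 6 reads, 0.469% of the arm (0.172 to 1.02). The form of 22 nt, listed for human and other species, had 933 reads, 73.0% (70.5 to 75.4), and the form of 21 nt had 339. The arm was 213-fold higher with these forms, all of which have the seed UGUACAU.
miR-493-5p, mouse entry: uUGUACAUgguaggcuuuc
miR-493-5p, 22 nt: uUGUACAUgguaggcuuucauu

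Smaller shares of shifted starts were found in 2 other members with over 100 reads. For miR-434-5p, 457 of 6624 reads began 1 nt earlier, 6.9% (6.3 to 7.54). For miR-370-3p these were 38 of 423, 8.98% (6.44 to 12.1). In miR-337-5p, 315 of 1527 reads ended 1 nt earlier, and in miR-540-3p 61 of 193 ended 2 nt later. miR-433-3p had 33 of 364 reads in a form 1 nt shorter. No form with another start is listed for miR-337-5p, miR-136-5p, miR-433-3p or miR-540-3p, so none could be seen.

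Against the rest of the library, 4 of the 7 members with at least 1000 reads had under 50% of them in the mouse entry, beside 44.2% of all 95 arms of that size. In 2 of the 7, miR-127-5p and miR-136-3p, the most abundant form began at another base than the mouse entry, beside 5.26% of the 95 arms. The 5 arms that make up this 5.26% include these 2. However, miR-127-5p, miR-136-3p and miR-493-5p passed 1000 reads only through their end forms. Their mouse entries had 100, 27 and 6 reads, so arms of this size had to be among the 4. The choice of arms thus favours the traits counted, and nothing is read from either share. Forms that no entry of the table records were not seen in either count.

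**Figure D3:**
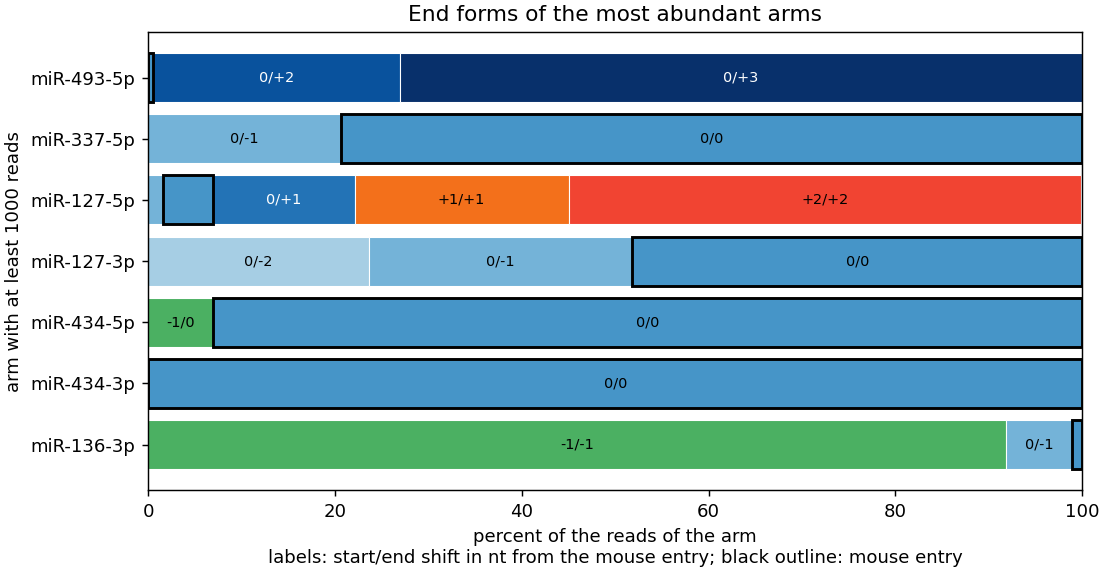
Share of each form in the reads of the arm (x axis, percent) for the 7 arms with at least 1000 reads (y axis). Segment labels give the shift of the first and last base from the mouse entry in nt, and the mouse entry has a black outline; green, orange and red segments begin at another base and fill 91.8% of miR-136-3p and 77.9% of miR-127-5p.

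The arms of most hairpins were very unequal. A miRNA hairpin is cut into a duplex, of which usually 1 strand, from the 5p or the 3p arm, is kept by Argonaute. Of the 10 member hairpins with at least 100 mouse-entry reads, 9 had over 10-fold more reads on 1 arm, beside 85.2% of 149 mouse hairpins. With end forms these were 9 of 11, beside 81.1% of 175. The 3p arm was higher in 6 of the 10, and in 42.3% of the 149. The number with a dominant arm was thus near that of other miRNAs.

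The 3p arm led in Mir127, Mir341, Mir370, Mir433, Mir540 and Mir673. Mir127 had 462.5 reads of miR-127-3p per read of miR-127-5p (380.2 to 568.6) by mouse entries, and 51.0 with end forms (48.7 to 53.4). Mir341 had 895 reads of its 3p arm and 1 of its 5p arm (ratio interval 160.2 to 35389.6). Mir370 had 35.2 reads of 3p per read of 5p with end forms (20.0 to 68.8), and Mir433 had 28.0 (16.2 to 53.1). Mir540 had 64.3 (21.7 to 314.7), from 3 reads of the 5p arm. For Mir673, with 470 reads against 0, the 3p arm was at least 156.7-fold higher, taking 3 reads as the floor.

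The 5p arm led in Mir337 and Mir431. Mir337 had 93.2 reads of 5p per read of 3p (54.3 to 175.6), or 80.4 with end forms (51.3 to 133.9). Mir431, whose 5p arm had 203 reads, had 33.8 per read of 3p with end forms (15.3 to 93.3). In Mir434 both arms were abundant, with 3.9 reads of 5p per read of 3p (3.69 to 4.12) and 4.19 with end forms. No other form of miR-434-3p is listed, so end forms could only raise this ratio. Mir434 was the 1 member hairpin of the 10 under 10-fold by mouse entries.

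In Mir136 and Mir493 the leading arm depended on the end forms. By mouse entries, miR-136-5p led with 562 reads against 27, a ratio of 20.8 (14.2 to 31.9). With end forms miR-136-3p led with 2552 against 563, a ratio of 4.53 (4.14 to 4.97). For Mir493 the mouse entries gave 16 reads of 3p and 6 of 5p, a ratio of 2.67 whose interval includes 1 (0.991 to 8.32). With end forms miR-493-5p led 79.9 to 1 (49.0 to 140.2). No other form of miR-493-3p is listed, beside 3 of miR-493-5p, so end forms could raise only the 5p arm. The direction of this change was thus fixed, and nothing is read from it. No other member hairpin with reads on both arms changed its leading arm.

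**Figure D4:**
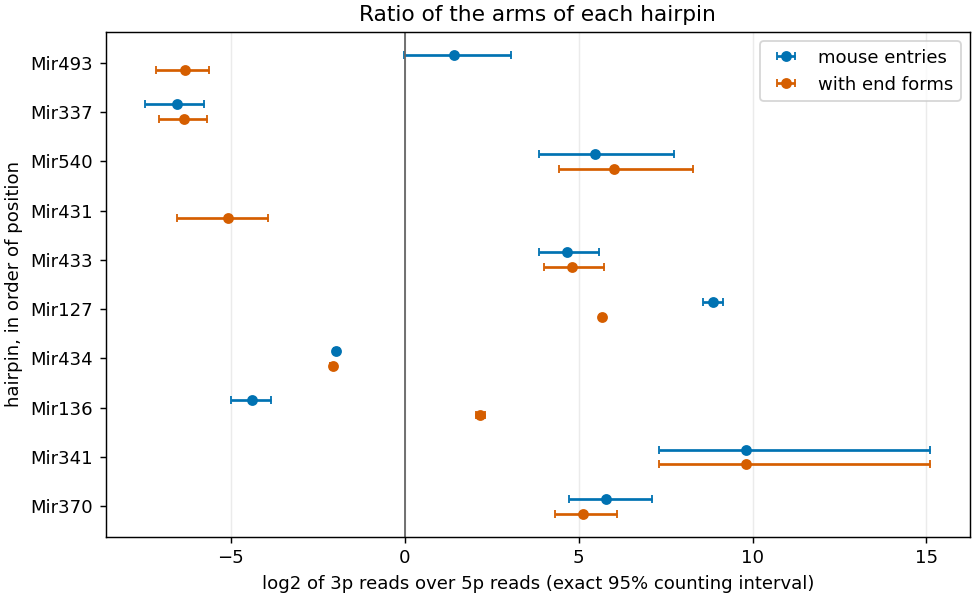
Log2 ratio of 3p to 5p reads (x axis) for the member hairpins with reads on both arms in at least 1 count (y axis, in order of position), with exact 95% counting intervals. Blue points use mouse entries and orange points add end forms; Mir136 and Mir493 change sides of the line at 0, and Mir434 lies at -1.96 and -2.07.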

How the data were processed

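Adapters were ligated to both ends of small RNAs in total liver RNA, followed by PCR, size selection and single-end Illumina sequencing, per the labels' protocols. The authors deposited raw counts of reads of 1 library for 48885 mature miRNA entries of many species, per the file headers. The name of its column is the title of Cre-miR122 replicate 2, and 0 other columns were left unmatched. For the counting program and the miRNA release, the sources used here give none. The build mm10 is named by the submitters' processing notes. The total before matching is not given, so depth is the 8163802 reads over 30721 distinct sequences.

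Identical sequences had equal counts (0 exceptions) and were used once. Sequences of other species found exactly in the 2202 mouse miRNA hairpins of GENCODE M21 (GRCm38) were assigned to the mouse sequence they overlapped most, by at least 15 nt at every place. All those in member hairpins carried the member's number, and 1 read of 1 same-numbered sequence lay outside them. Ratios have exact intervals given the sum of both counts. Planned tests between groups could not be run with 1 library. The members, marker lists and thresholds were chosen with earlier results of these data known. Members with at least 1000 reads are given in full, those with at least 10 by their reads and the rest by name. Alternatives were end forms, denominators, a minimum of 10 reads and leaving out leading miRNAs. Methods were tested on simulated data. Figures were drawn with matplotlib 3.10.9, and values computed with SciPy 1.17.1, NumPy 2.4.6 and pandas 2.3.3 in Python 3.11.15.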

Additional observations from a re-analysis of the deposited data

Results flagged for a closer look

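Reads counted for entries of other species are outside the mouse-entry count. Inside the member hairpins such entries, all with the member's own number, held 56301 reads, beside 58392 reads of the mouse entries. No control library was used to compare them with. Their part in the 5p and 3p counts of Mir136 and Mir493 is given above.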

How the results depend on the processing

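End forms of the same number and of any number were the same reads here, and so are 1 alternative. With them, the share of the set was 1.43% in place of 0.877%. It was 0.715% of all reads of the table and 2.08% of mouse reads when miR-148a-3p was removed from them. The proportion held by miR-127-3p moved from 79.2% to 83.7% with end forms. Proximal reads per distal read were 0.238, and 0.43 with end forms, 0.227 without the leading miRNA of each set and 0.258 with both changes, the last chosen after seeing the data. The log2 ratio of 3p to 5p reversed with end forms for Mir493, from 1.42 to -6.32, and for Mir136, from -4.38 to 2.18. For Mir493 the direction of the change was fixed, since no other form of miR-493-3p is listed. By construction, each alternative differs only in which reads are counted. Counts of members with reads (22, or 23 with end forms and 17 at 10 reads or more) stayed within 1.5 times. Hairpins with a dominant arm were 9 of 10 by mouse entries and 9 of 11 with end forms, but Mir136 was among the former only and Mir493 among the latter only. A minimum of 10 reads gave a share of 0.876%. No paired analysis was possible because a single library was used here. For the same reason leaving out a replicate was not run. Depth limits the 13 members with no read of any form, the arms with 1 to 9 reads and the ratios that rest on them, such as those of Mir341 and Mir540.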
